A study of Mus musculus with 45 samples.

Results

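The 10 genes Dcx, Tubb3, Tubb2b, Tuba1a, Map1b, Mapt, Stmn1, Stmn2, Dpysl3 and Gap43 encode tubulins, proteins that bind tubulin or microtubules, and growth cone proteins of neurons. They were chosen by name from the 53491 genes of the tables, and all 10 were found. Their levels and RNA half-lives were followed in primary cortical cells of wild-type (WT) mouse embryos of 3 ages, E11.5, E14.5 or E16.5 (early, middle and late cortical neurogenesis). Every group had grown with 100 uM 4-thiouridine (4sU) for 20 h, in a medium with the growth factor bFGF, and was then chased with 5 mM uridine for 0, 2, 4, 8 or 12 h. Each stage had 3 biological replicates (A, B and C), each made by pooling the cortices of 7 embryos for E11.5 and of 2 for the later stages, and dividing the cells over 5 wells, so that the 45 libraries form 15 groups of 3. The method, SLAM-seq, turns incorporated 4sU into T-to-C conversions, and the conversion rate of a gene is the share of its sequenced T positions read as C.

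Microtubules are polymers of alpha- and beta-tubulin that carry transport and give axons and dendrites their shape. Newborn neurons of the cortex rebuild this polymer as they migrate and extend an axon. Structural proteins such as Dcx, Map1b and Mapt bind and stabilise it, stathmins bind free tubulin dimers, and Dpysl3 and Gap43 act at the growth cone, the motile tip of the growing axon. The amount of each mRNA depends on how fast it is made and on how fast it decays, and decay is often set by elements in the 3′ UTR.

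The libraries held 228.7e6 to 629.1e6 covered T positions, from 15.94e6 to 43.89e6 recovered reads. No library was identical to another. Among the 10 genes, Stmn1 had the fewest reads, 751 in its lowest library, and the next lowest minimum was that of Mapt with 1868. The label at 0 h was stronger in E16.5 cells, where 1.86% ± 0.06 of all covered Ts were converted (SD, n = 3 pools), than in E11.5 cells (1.18% ± 0.23) or E14.5 cells (1.10% ± 0.08). In comparisons with E16.5, stage and strength of labelling therefore moved together and cannot be told apart. The pools of E11.5 (1.087%, 1.009% and 1.441%) and of E14.5 (1.094%, 1.177% and 1.025%) overlapped. Replicates are pools of embryos, and p-values measure the spread between these pools.

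For 4 of the 10 genes, part of the sequence occurs elsewhere in the genome. When the exons were cut into pieces of 75 bases, 76.3% of the pieces of Tuba1a matched another place with at most 2 mismatches, as did 62.7% for Tubb2b, 40.9% for Stmn1 and 30.8% for Tubb3. The spliced form of Stmn1 was copied most completely, with 90.9% of its pieces found elsewhere, above all in the processed pseudogene Gm11223. None of the pieces of Dcx, Map1b, Mapt, Stmn2, Dpysl3 or Gap43 had such a match. Tuba1a also shares 26.2% of its exon bases with the gene Gm49450 on the same strand. Levels and half-lives of these 4 genes are uncertain to the extent that the counting divided reads between copies or left out reads with several matches. Tuba1a, Tubb2b and Stmn1 are given below together with their copies, which would not restore reads that were left out. For Tubb3, 49 of the exon pieces and 59 of the spliced pieces matched elsewhere. Tubb6 was the only gene with annotated exons at such a match, and it held 4 of these pieces. It stood at 38.5, 43.8 and 48.0 cpm (mean reads per 1e6 reads at 0 h, at the successive stages). The other matches of Tubb3 lay outside annotated exons, and no level is given for them.

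The 3′ UTRs of the 10 genes ranged widely in length. On GRCm38 (the build mm10), the longest annotated 3′ UTR was 7709 bases in Dcx, longer than in 98.6% of the 8792 transcripts with a half-life and an annotated 3′ UTR. Map1b followed with 4360 bases (91.4th percentile), Mapt with 3903 (88.5th) and Dpysl3 with 3348 (83.7th). At the other end stood Tuba1a with 197 bases (5.75th percentile), Tubb3 with 391 and Stmn1 with 440, against a median of 1425 bases over all transcripts. The letters TATTTAT, the core of an AU-rich element, were present in 2 of the 10 genes and in 35.0% of all these 3′ UTRs. TGTANATA, the binding sequence of Pumilio proteins, was present in 3 of the 10 and in 31.9% of all. ATTTA, which TATTTAT contains, was present in 7 of the 10 and in 76.3% of all, and TTTTTTT in 5 of the 10 and in 51.2% of all. These 4 motifs were searched on the RNA strand alone, in the longest annotated 3′ UTR of each gene. The 8 windows below are all the sites of TATTTAT and TGTANATA in the 10 genes, shown because both motifs are known decay elements, with 10 bases to either side and the motif in capitals. The sequence is the RefSeq genome on GRCm38, written as RNA-sense DNA 5′ to 3′.
Dcx, TATTTAT, chrX:143856366-143856392, minus strand: tgctgactaaTATTTATtggggataaa
Dcx, TGTANATA, chrX:143860687-143860714, minus strand: aaaagggaaaTGTATATAtaggggctgg
Dcx, TGTANATA, chrX:143856668-143856695, minus strand: taccattaacTGTAAATAcctgatttag
Map1b, TATTTAT, chr13:99424214-99424240, minus strand: gaagtcatgaTATTTATttttaaaaac
Map1b, TATTTAT, chr13:99423670-99423696, minus strand: ctatgttagtTATTTATttcaaaattt
Map1b, TATTTAT, chr13:99423447-99423473, minus strand: gcagctttttTATTTATtatcctgttt
Map1b, TGTANATA, chr13:99424755-99424782, minus strand: catgtaggatTGTAGATActccagggaa
Stmn2, TGTANATA, chr3:8560535-8560562, plus strand: gatcttatttTGTAAATAtttacatttt
A match of letters does not show that a site is bound.

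All 10 genes rose from E11.5 to E16.5. Levels are reads per 1e6 reads (cpm) at 0 h of chase, and differences were tested with the quasi-likelihood test of edgeR on covered-T counts, calling an adjusted p under 0.05. From E11.5 to E14.5, 9 of the 10 genes rose, beside 25.1% of the 18408 genes tested. From E14.5 to E16.5, 9 of 10 rose again, beside 24.1%, and over the whole interval 10 of 10 rose, beside 31.4%. Past a log2 fold change of 1, the counts were 4, 1 and 5 genes, beside 8.14%, 7.19% and 14.7% of all genes. None of the 10 fell in these 3 comparisons, beside 23.5%, 25.4% and 33.1% of all genes. All pools of the later stage lay above all pools of the earlier one for 9, 8 and 10 of the 10 genes, beside 25.0%, 29.3% and 31.6% of all. In bulk libraries, more cells that express a gene and more RNA of it per cell cannot be told apart.

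**Figure D1:**
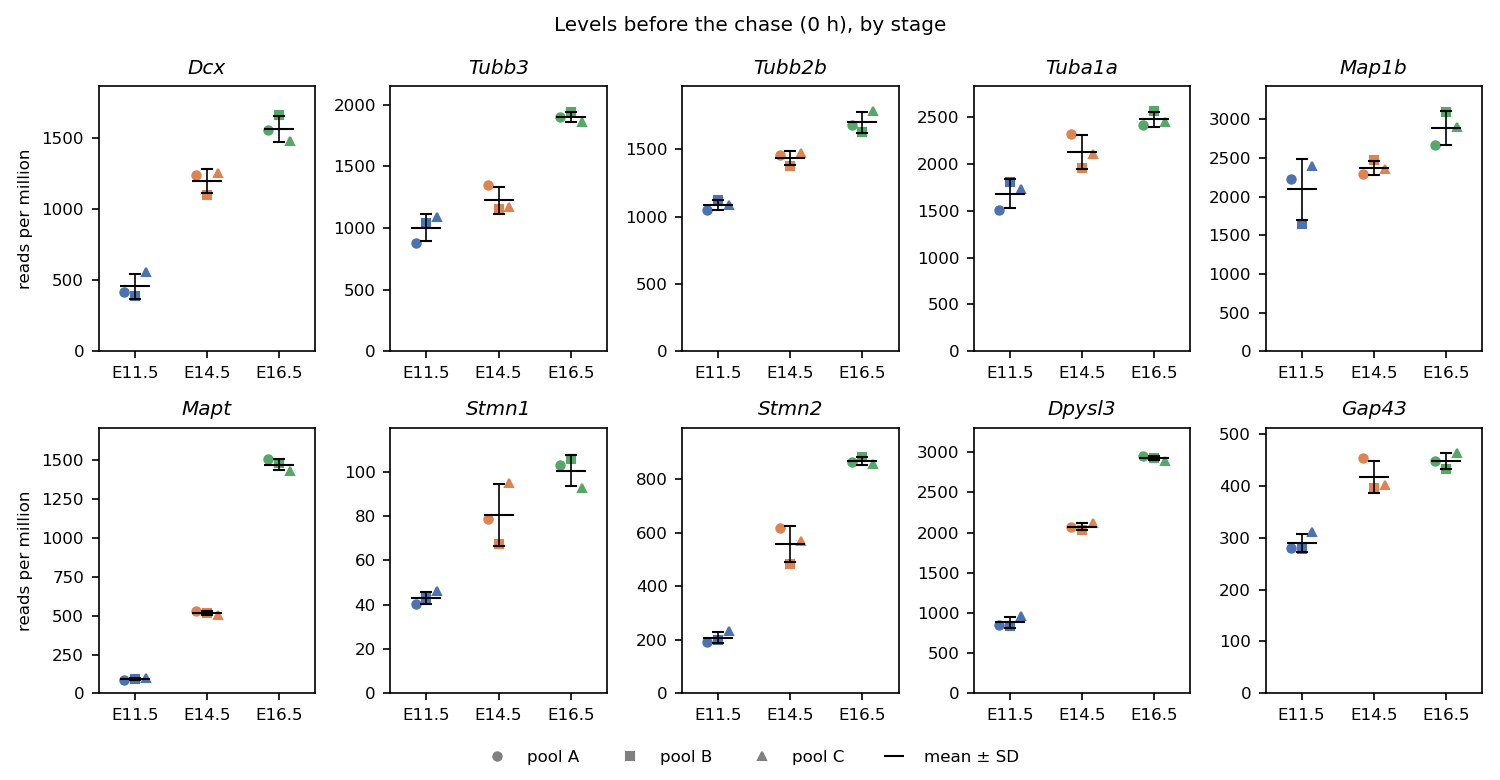
Levels of the 10 genes before the chase in cpm (reads per 1e6 reads), by stage. Points are the 3 pools of a stage and the bar is their mean ± SD. All pools of E16.5 lie above all pools of E11.5 for each of the 10 genes, with the largest fold change for Mapt.

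Among the tubulins, the alpha-tubulin Tuba1a, the main alpha chain of young neurons, was the most abundant of the 10 per length at every stage. It stood at 1509, 1807 and 1731 cpm in pools A, B and C of E11.5, at 2315, 1957 and 2100 in those of E14.5, and at 2411, 2566 and 2446 in those of E16.5. The groups did not overlap, and the rise over the whole interval was 1.54-fold (log2 0.63 ± 0.08 SE, adjusted p = 1.4e-05). Tubb3, the beta-tubulin used to mark neurons, was at 878.1, 1037 and 1092 cpm in the E11.5 pools, at 1350, 1152 and 1167 in the E14.5 pools, and at 1897, 1938 and 1857 in the E16.5 pools. Most of its rise came late, with a log2 change of 0.32 ± 0.09 up to E14.5 and of 0.68 ± 0.09 after it. Tubb2b, the other beta-tubulin of the set, had 1049, 1123 and 1089 cpm in the E11.5 pools, then 1453, 1374 and 1469, then 1680, 1625 and 1785. The pools of successive stages did not overlap, and the log2 change over the whole interval was 0.73 ± 0.06 (adjusted p = 2.1e-07).

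The copies of these tubulins differed in their course. Tubb2a, a protein-coding gene, had 273 ± 12.7 cpm (SD, n = 3) in E11.5 cells, 344 ± 29.8 in E14.5 cells and 525 ± 26.1 in E16.5 cells. The pseudogene Tubb2a-ps2 was listed at 349 ± 8.54, 414 ± 9.93 and 561 ± 12.8 cpm. Summed over Tubb2b and both copies, the level went from 1709 ± 54.5 to 2190 ± 84.95 and 2782 ± 43.3 cpm. The log2 change of that sum from the first to the last stage was 0.70, against 0.64 for Tubb2b alone, both from mean cpm with no TMM scaling. Tuba1b, another alpha-tubulin gene, was listed at only 1.06 ± 0.08 cpm in E11.5 cells and 2.38 ± 0.81 in E16.5 cells. Tuba1c was at 29.6 ± 5.66 and 20.7 ± 1.55 cpm, and the pseudogene Gm14150 at 124 ± 3.52 and 166 ± 2.87.

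Of the microtubule-associated proteins, Mapt (tau, which binds along axonal microtubules) had the largest fold change of the 10. It was at 87.3, 89.8 and 99.9 cpm in the E11.5 pools, at 532, 518 and 503 in the E14.5 pools, and at 1506, 1481 and 1432 in the E16.5 pools. No pool of one stage reached the range of another, and the rise was 5.92-fold up to E14.5 and a further 2.85-fold after it (log2 4.08 ± 0.07 in all, adjusted p = 1.1e-12). Dcx (doublecortin, which migrating neurons need) had 419.5, 393 and 561 cpm in the E11.5 pools, then 1238, 1103 and 1252, then 1557, 1664 and 1481. Its rise was 3.60-fold (log2 1.85 ± 0.12, adjusted p = 1.8e-08), with 1.43 of it before E14.5 and 0.42 after. Map1b, a large protein of growing axons, was abundant from the start and had the smallest fold change of the 10. It had 2233, 1651 and 2399 cpm in the E11.5 pools, then 2296, 2471 and 2355, then 2665, 3100 and 2894. The pools of the first 2 stages overlapped, and the difference between them did not pass the test (log2 0.23 ± 0.11, adjusted p = 0.0982), whereas the whole rise did (log2 0.52 ± 0.11, adjusted p = 1.0e-03).

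Both stathmins rose at each step. Stmn2, the stathmin of neuronal growth cones, was at 192.5, 201 and 232 cpm in the E11.5 pools, at 619, 484 and 569 in the E14.5 pools, and at 864, 882 and 854.5 in the E16.5 pools. The stages did not overlap, and the whole rise was 4.45-fold (log2 2.15 ± 0.10, adjusted p = 7.7e-10). Stmn1, which sequesters tubulin dimers, was listed at 40.6, 42.9 and 46.1 cpm in the E11.5 pools, then at 78.9, 67.5 and 95.1, then at 103, 106 and 92.6. Its pools of the later 2 stages overlapped, and its whole rise was 2.29-fold (log2 1.20 ± 0.13, adjusted p = 2.3e-06). The pseudogene Gm11223 was listed above Stmn1, with 145 ± 3.01 cpm (SD, n = 3), 255 ± 22.9 and 325 ± 3.88 at the successive stages. The sum of both went from 188 ± 5.62 to 335.5 ± 36.8 and 425 ± 8.18 cpm, and its log2 change of 1.18 from mean cpm lay between the 1.22 of Stmn1 and the 1.16 of Gm11223.

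Among the growth cone proteins, Dpysl3 (a collapsin response mediator protein, which links guidance signals to the cytoskeleton) was at 849.5, 838 and 958 cpm in the E11.5 pools, at 2072, 2032 and 2116 in the E14.5 pools, and at 2945, 2927 and 2893 in the E16.5 pools. The 3 stages were far apart relative to the spread of the pools, with a rise of 3.46-fold (log2 1.79 ± 0.07, adjusted p = 1.7e-10). Gap43, a membrane protein of axon tips, had 279.9, 279 and 310.4 cpm in the E11.5 pools, then 453, 396 and 401, then 448, 432 and 463.5. It rose before E14.5 (log2 0.59 ± 0.07, adjusted p = 2.3e-05), and the later pools overlapped, with a difference that did not pass the test (log2 0.12 ± 0.07, adjusted p = 0.209).

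Per kilobase of exon, the order of the 10 genes changed with stage mainly through Mapt. Exon length was that of all annotated isoforms merged, and each gene was ranked without its copies. The places of Stmn1 and of the 3 tubulins are therefore uncertain. Gm11223, the copy of Stmn1, was listed at 145 cpm in E11.5 cells, against 43.2 for Stmn1. Tubb2b summed with Tubb2a and Tubb2a-ps2 stood at 1709 cpm there, against 1087 for Tubb2b alone. At E11.5 the order was Tuba1a with 933 cpm per kilobase, Tubb3 with 537, Tubb2b with 474, Gap43 with 190.2, Dpysl3 with 133, Map1b with 132, Stmn2 with 37.2, Dcx with 36.2, Stmn1 with 22.5 and Mapt with 12.3. The replicates of Tubb3 and Tubb2b, of Dpysl3 and Map1b, and of Stmn2 and Dcx overlapped there. By E16.5, Mapt had moved from the last place to the sixth, at 196 ± 4.96 cpm per kilobase (SD, n = 3), level with Map1b at 182 ± 13.7, whose pools it overlapped. The 3 tubulins held the first 3 places at each stage.

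At 0 h, most of the 10 genes carried less label than the library as a whole at the younger stages. In E11.5 cells their conversion rates ranged from 0.780% for Mapt to 1.45% for Stmn1, and 9 of 10 lay below the rate over all covered Ts. The same count, 9 of 10, lay below it at E14.5, with Stmn1 again the exception, while in E16.5 cells Tubb2b alone did. Mapt showed the widest move in rank, from percentile 3.92 among genes at the first stage to percentiles 19.8 and 80.2 at the next 2. In its E11.5 pools the rate was 0.641%, 0.655% and 1.04%, and in those of E16.5 it was 2.02%, 2.19% and 2.10%. Pool C of E11.5 was the most strongly labelled pool of that stage for 9 of the 10 genes. These rates are described with no test, as the overall labelling differed between stages in the same direction.

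The chase then removed label more slowly from these genes than from the library as a whole. After 2 h, the median gene of the 10 still had 94.7%, 97.5% and 96.6% of its 0 h conversion rate at the successive stages, while the libraries had 85.0%, 88.5% and 80.5%. After 12 h, the medians were 29.1%, 35.0% and 22.6%, against 23.4%, 23.7% and 13.3% over all covered Ts. Stmn2 kept the most label in E11.5 cells, 39.1% ± 7.50 (SD, n = 3), and Dcx in E14.5 cells, 39.1% ± 1.52, and in E16.5 cells, 34.95% ± 2.10. Map1b kept the least at each stage, down to 9.71% ± 0.19 in E16.5 cells, below the library rate.

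**Figure D2:**
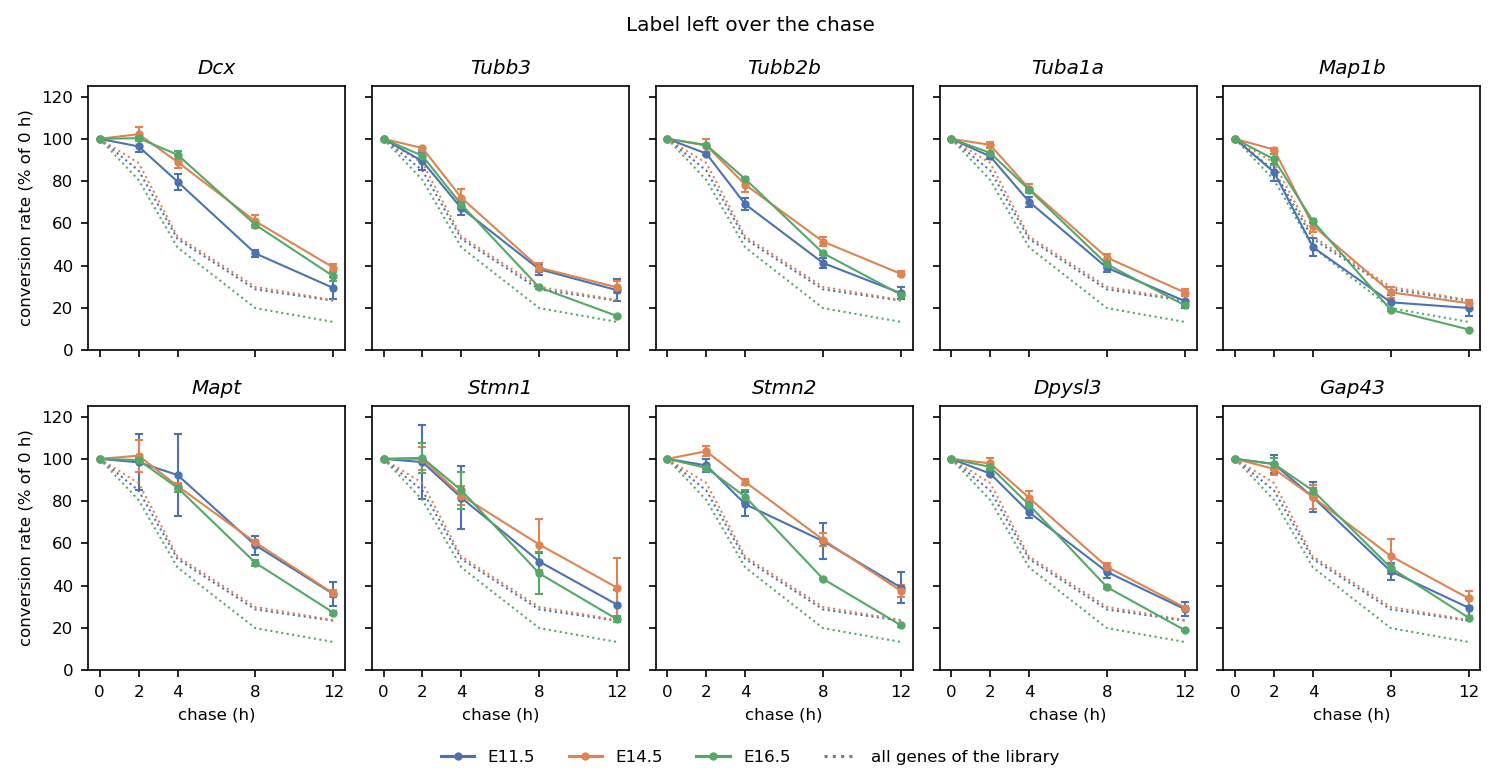
Conversion rate of each gene over the chase in percent of its rate at 0 h, with stages in colour, mean ± SD of 3 pools. Dotted lines give the rate over all covered Ts of the libraries. Curves of 9 of the 10 genes run above the dotted line of their stage at 8 h, and Map1b runs below it.

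Half-lives were long for this set. They come from an exponential fitted to the rates of a pool over the 5 chase times, and a half-life was kept with more than 500 covered Ts, a value between 0 and 24 h and an R2 above 0.6 in all 3 pools of a stage. All 10 genes were kept at all 3 stages, among 9505 transcripts. The median of the 10 was 7.70 ± 0.67, 9.16 ± 0.78 and 7.52 ± 0.38 h at the successive stages (SD, n = 3 pools), where the median of all kept transcripts was 4.32 ± 0.45, 4.53 ± 0.20 and 3.37 ± 0.07 h. These values depend on the 0 h point of the chase. Without it the median of the 10 was 5.78 ± 0.64, 6.39 ± 0.67 and 4.67 ± 0.10 h, beside 4.92 ± 0.57, 4.90 ± 0.29 and 3.63 ± 0.06 h over all transcripts kept by that fit. In that fit without the 0 h point, the mean of Map1b lay below the median of all transcripts at each stage. The means of all other genes of the set lay above it, and no percentiles are given for that fit. In the fit to all 5 times, the percentile of the median gene among the 9505 transcripts was 94.1, then 95.7, then 96.9. In that fit to all 5 times, each of the 10 lay above the 50th percentile at every stage, and 6, 8 and 8 of them above the 90th. These ranks describe a chosen list and carry no test.

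**Figure D3:**
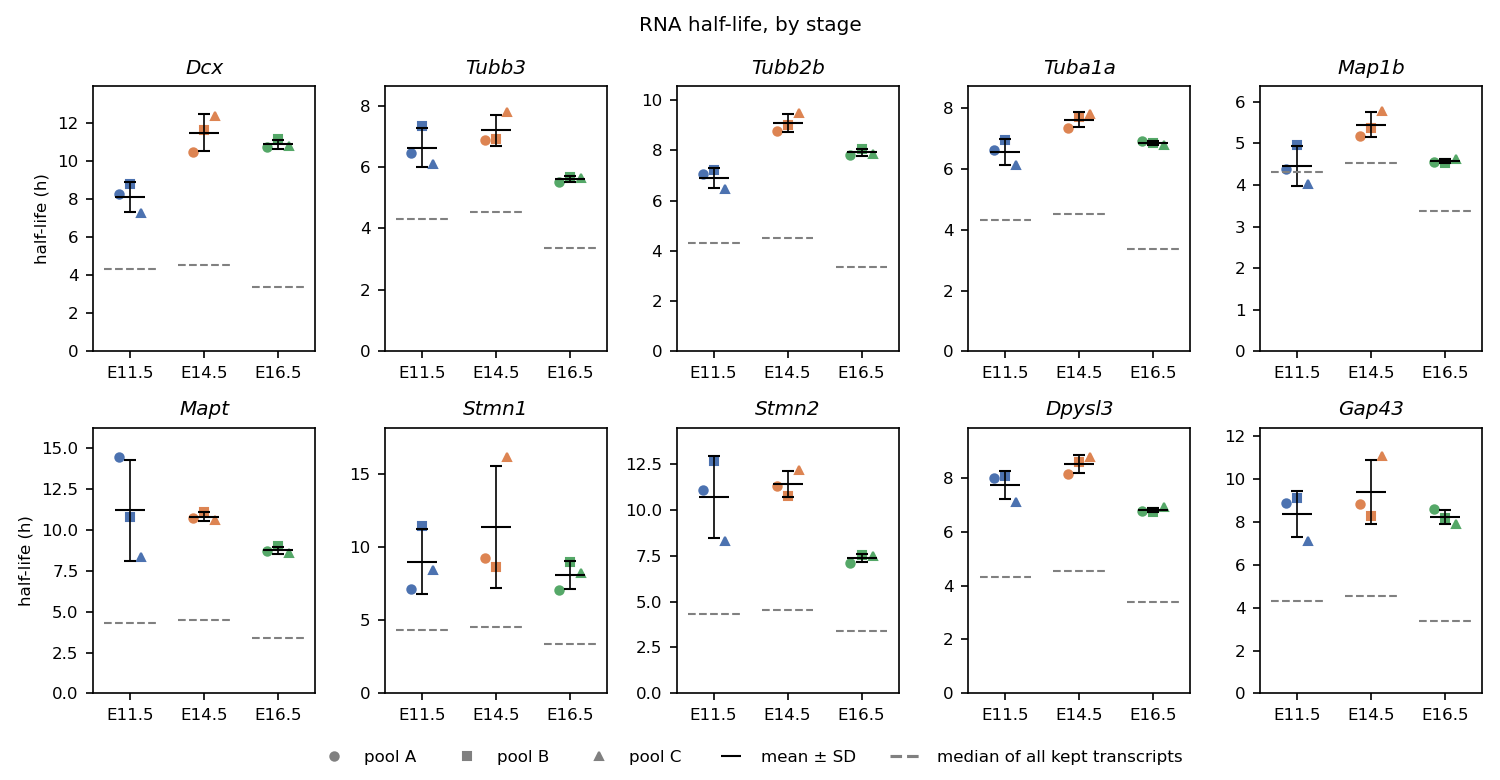
RNA half-life of the 10 genes in hours, by stage. Points are the 3 pools, bars their mean ± SD, and dashed lines the median of the 9505 kept transcripts at that stage. All means lie above the dashed line, and Map1b at E11.5 lies closest to it.

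Dcx had the clearest change in half-life. Its half-life was 8.26, 8.80 and 7.26 h in pools A, B and C of E11.5, then 10.47, 11.61 and 12.37 h, then 10.71, 11.13 and 10.76 h in the E16.5 pools. The E11.5 pools lay below all later ones. Without the 0 h point its mean was 5.70, 7.15 and 6.42 h. Stages were compared on half-lives z-scored within a pool, which removes the shortening of all half-lives at E16.5, with limma over the 9505 transcripts. On this scale Dcx rose by 2.49 SD ± 0.15 (SE) from E11.5 to E16.5 (adjusted p = 0.00153), and by 1.29 and 1.20 SD in the earlier and later step (adjusted p = 0.0389 and 0.0269). Called longer in the single steps were 0.126% and 0.684% of all transcripts, and Dcx was the only one of the 10 in each. None of the 10 was called shorter there, beside 0.0736% and 0.20% of all. Each of these single-step calls was lost when a pool of either stage compared was left out, except pool C of E11.5. Its percentile went from 94.6 to 98.2 and 99.5.

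Across the 3 stages, 4 of the 10 genes changed their relative half-life, beside 3.15% of all transcripts, and the same 4 were longer at E16.5 than at E11.5, beside 2.99%. Next to Dcx, these were Tubb2b (1.34 SD ± 0.15, adjusted p = 0.00642), Tuba1a (0.89 SD ± 0.15, adjusted p = 0.0196) and Map1b (0.63 SD ± 0.09, adjusted p = 0.0134). None was called shorter by limma, beside 1.71%, and 1, Stmn2, was shorter at an unadjusted p under 0.05. Of all 9505 transcripts, 2097 had such a p in either direction. The count across the 3 stages fell to 1, Dcx, with any 1 of the E16.5 pools left out, and to 2, Dcx and Tubb2b, without pool A or B of E11.5 or pool A or C of E14.5. Of the 4 called longer at E16.5, 2 kept the call with any 1 of the E16.5 pools left out, Dcx and Tubb2b, and Tuba1a also lost its call without pool A or B of E11.5. Without the 0 h point in the fit, the sign of Map1b turned, to -0.45 SD (adjusted p = 0.0703). In a quasi-Poisson fit of the decay, Map1b lost its call (0.32 SD, adjusted p = 0.117) and Gap43 was called longer (1.26 SD, adjusted p = 0.0067).

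Tubb2b had half-lives of 7.05, 7.23 and 6.46 h in the E11.5 pools, then 8.78, 9.02 and 9.47 h, then 7.82, 8.06 and 7.86 h in the E16.5 pools, so that no E11.5 pool reached the others. The copies Tubb2a and Tubb2a-ps2 had 6.49 ± 0.86 and 7.04 ± 1.19 h in E11.5 cells (SD, n = 3), against 6.58 ± 0.16 and 8.39 ± 0.27 h in E16.5 cells. Tuba1a had 6.60, 6.95 and 6.12 h, then 7.33, 7.70 and 7.79 h, then 6.91, 6.84 and 6.77 h, and its E11.5 and E16.5 pools overlapped in hours. Its copy Gm14150 had 6.58 ± 0.89, 7.45 ± 0.29 and 6.48 ± 0.25 h at the successive stages. Tuba1c had 6.80 ± 1.02 and 7.15 ± 1.67 h in E11.5 and E14.5 cells and was not kept at E16.5. Map1b had 4.38, 4.97 and 4.03 h, then 5.19, 5.38 and 5.79 h, then 4.56, 4.53 and 4.63 h. It was the shortest-lived of the 10 at each stage, and its percentile went from 53.8 to 70.1 and 76.9.

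In the other 6 genes the difference in relative half-life between these stages did not pass the test. For Stmn2, with 11.08, 12.66 and 8.27 h in the E11.5 pools, then 11.31, 10.75 and 12.13 h, then 7.12, 7.52 and 7.47 h, the difference was -0.80 SD ± 0.20 (adjusted p = 0.0658). Its E16.5 pools lay below all others in hours, and it was called shorter without pool C of E11.5. Gap43 had 8.87, 9.12 and 7.11 h, then 8.82, 8.25 and 11.07 h, then 8.59, 8.18 and 7.90 h, a difference of 0.82 SD ± 0.22 (adjusted p = 0.0803). Dpysl3, with 7.98, 8.07 and 7.12 h in the E11.5 pools and 6.77, 6.73 and 6.90 h in the E16.5 pools, differed by 0.27 SD ± 0.16 (adjusted p = 0.357), and Tubb3, with 6.47, 7.34 and 6.08 h and 5.50, 5.68 and 5.66 h, by 0.14 SD ± 0.11 (adjusted p = 0.536).

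The half-lives of Stmn1, and in E11.5 cells those of Mapt, were the most scattered. Mapt had 14.49, 10.78 and 8.365 h in the E11.5 pools, where its lowest R2 was 0.629, then 10.75, 11.11 and 10.63 h, then 8.691, 8.999 and 8.599 h. Its relative half-life differed by -0.28 SD ± 0.56 between E11.5 and E16.5 (adjusted p = 0.818), and the sign turned without pool A of E11.5. Stmn1 had 7.12, 11.46 and 8.41 h, then 9.26, 8.64 and 16.17 h, then 7.05, 8.99 and 8.26 h, with a difference of 0.42 SD ± 0.74 (adjusted p = 0.79). The copy Gm11223 was steadier, with 7.40 ± 0.67, 8.78 ± 0.47 and 7.08 ± 0.18 h.

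In hours without scaling, the picture followed the shortening of all transcripts at E16.5. From E14.5 to E16.5, 4 of the 10 genes were called shorter in hours, Tubb3, Tubb2b, Stmn2 and Dpysl3, beside 37.9% of all transcripts. From E11.5 to E16.5 none was called shorter in hours, beside 12.6%, and Dcx was called longer, by 2.76 h ± 0.55 (SE, limma, adjusted p = 0.0328), beside 0.210% of all. Between the first 2 stages none was called in hours, beside 0.0631% longer and 0.0105% shorter, and none was called longer from E14.5 to E16.5, beside 0.137%.

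Half-lives whose pools did not overlap gave the same contrast of scales. On the relative scale, all pools lay longer for 4 genes from E11.5 to E14.5 (beside 9.16% of transcripts), for 6 from E14.5 to E16.5 (14.4%) and for 7 over the whole interval (17.2%), namely Dcx, Tubb3, Tubb2b, Tuba1a, Map1b, Dpysl3 and Gap43. All pools lay shorter for 0, 1 (Stmn2) and 0 genes, beside 7.86%, 15.4% and 15.6%. In hours the counts longer were 5, 0 and 2 genes, beside 10.8%, 0.568% and 1.25%, and the counts shorter were 0, 7 and 3, beside 2.25%, 69.5% and 51.5%.

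The estimated change in level was larger than that in half-life for each of the 10 genes, but for Map1b the estimates ± SE overlapped. Between E11.5 and E16.5, log2 changes in level ran from 0.52 for Map1b to 4.08 for Mapt. Log2 changes of the half-life over the median of its pool ran from -0.16 ± 0.09 for Stmn2 to 0.78 ± 0.07 for Dcx. Mapt rose 16.9-fold in level while its relative half-life was 1.02-fold that of E11.5 (log2 0.03 ± 0.15), and Stmn2 rose 4.45-fold with 0.894-fold. Tubb2b and Map1b showed the smallest gaps, with 1.66-fold in level against 1.46-fold in relative half-life, and 1.43-fold against 1.31-fold. For Map1b these are log2 changes of 0.52 ± 0.11 in level and 0.39 ± 0.07 in relative half-life, and without pool B of E11.5 the change in level was 0.38. Across the 10 genes, Pearson's r between the log2 changes was -0.44 and Spearman's rho -0.53, a description of 10 genes that share their libraries.

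**Figure D4:**
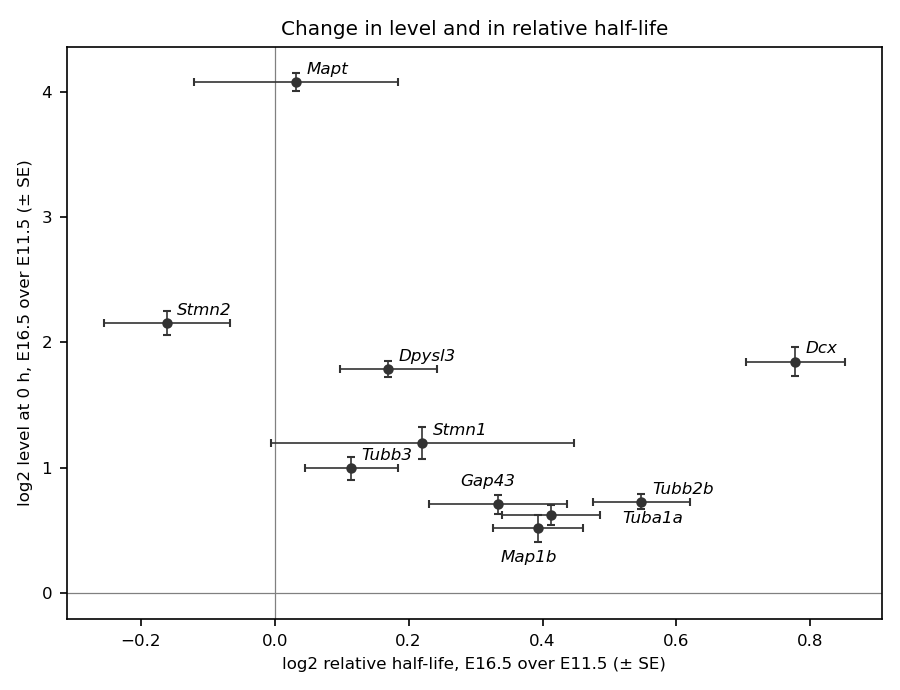
Log2 change in level at 0 h (vertical, edgeR) against log2 change in half-life relative to the pool median (horizontal, limma) from E11.5 to E16.5, both ± SE. All 10 points lie above 0 on the vertical axis, Mapt at 4.08, and Dcx lies farthest right at 0.78.

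The levels of several of the genes also moved during the chase. At E16.5, 7 of the 10 were higher after 12 h than at 0 h, beside 13.1% of all genes. They were Tubb3 (log2 0.42 ± 0.03, adjusted p = 5.6e-05), Mapt (0.35 ± 0.03), Stmn2 (0.32 ± 0.03), Tubb2b (0.29 ± 0.04), Tuba1a (0.28 ± 0.04), Dpysl3 (0.25 ± 0.03) and Dcx (0.21 ± 0.05). Each of the 7 was higher in 3 of 3 pools. Tubb3 went from 1897, 1938 and 1857 to 2474, 2559 and 2445 cpm. In E14.5 cells, 0 of the 10 were called by edgeR at the adjusted threshold, beside 6.29% of all genes higher and 5.63% lower. By DESeq2 it was 0 too, and 2 had an unadjusted p under 0.05 (Mapt higher and Gap43 lower). Of all 18784 genes tested, 5167 had such a p in either direction by edgeR and 5421 by DESeq2. With the pool as a block, 1 gene was called there, Gap43, which was lower.

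At E11.5, 4 genes were called higher after 12 h, beside 10.3% of all genes, Mapt (log2 0.80 ± 0.09, adjusted p = 4.2e-04), Dcx (0.48 ± 0.13), Gap43 (0.29 ± 0.08) and Tubb2b (0.21 ± 0.06). With the pool as a block it was 7, and with library totals in place of TMM it was 2, Dcx and Mapt. Without pool A, or without pool B, 1 call was left, that of Mapt, and without pool C 3 were. In these pools Gm42418 took 29686 to 67623 cpm at 12 h, against 3861 to 9482 cpm at 0 h, and its part in the calls was not tested. In cpm, Mapt went from 87.3, 89.8 and 99.9 to 132.9, 142.9 and 150.6 cpm, higher in 3 of 3 pools, whereas Tubb2b went from 1049, 1123 and 1089 to 1093, 1169 and 1035, higher in 2 of 3.

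**Figure D5:**
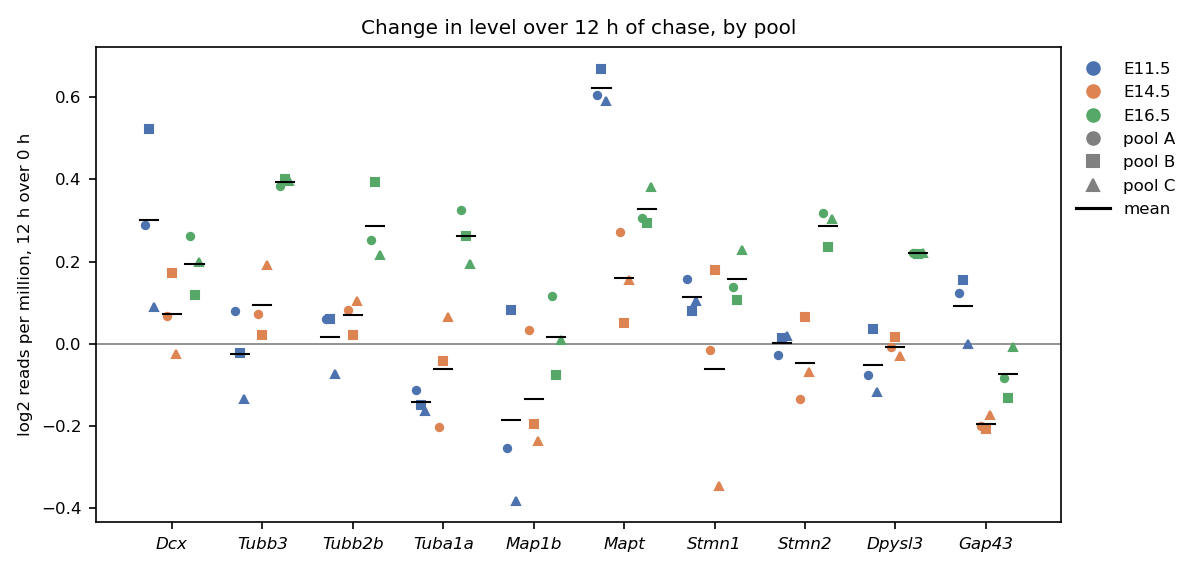
Log2 change in cpm from 0 h to 12 h of chase in each pool, by gene and stage, with the mean as a bar. The 3 E11.5 pools of Mapt lie between 0.59 and 0.67, above all other values, and the E14.5 pools of Gap43 lie below 0.

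Half-lives were also fitted to labelled RNA per 1e6 reads, the product of conversion rate and level. In this fit Dcx and Mapt did not pass the limits in all pools of E11.5 and were not kept there. In E16.5 cells Dcx then had 12.70 ± 0.51 h (SD, n = 3), Mapt 10.36 ± 0.10 h, Stmn2 8.45 ± 0.59 h and Map1b 4.34 ± 0.40 h. The median of the 10 was then 7.98 h at E16.5, against 7.52 h from the rates alone.

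Other genes of the microtubule system were less uniform than the 10. All lists below were compared between E11.5 and E16.5, where the median log2 change over all tested genes was -0.04, with 31.4% of them higher and 33.1% lower. Of 9 other tubulins tested, 3 rose and 3 fell, with a median of 0.23. Tubb4a rose most, from 122 ± 15.8 to 441 ± 10.6 cpm (log2 1.92 ± 0.10), beside Tuba1b and Tubb2a. Among 17 other microtubule-associated proteins 12 rose and 2 fell (median 0.59), with Camsap3, which caps minus ends, at 27.7 ± 0.79 and 123 ± 5.18 cpm (log2 2.19 ± 0.10), Map9 (1.73 ± 0.07) and the doublecortin relative Dclk1 (1.64 ± 0.10).

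Of 6 other stathmins and collapsin response mediators, 4 rose and 1 fell (median 1.59). Stmn4 had a log2 change of 3.79 ± 0.07, from 29.4 ± 0.42 to 377 ± 4.40 cpm, Stmn3 one of 2.08 ± 0.10, and Dpysl5 one of 1.96 ± 0.08. Their half-lives ranked high as well: the 5 kept members of this list had a median percentile of 86.9, 89.6 and 93.9 at the 3 stages, and Stmn3 had 12.32 ± 4.93, 10.77 ± 1.23 and 8.65 ± 0.36 h. Among 15 genes of tubulin folding and modification, 8 rose and 3 fell (median 0.24). The acetyltransferase Atat1 rose by 1.51 ± 0.08 on the log2 scale, and its relative half-life was longer at E16.5 by 1.45 SD (adjusted p = 0.0133). The ligase Ttl rose by 1.09 ± 0.07 and the glutamylase subunit Ttll1 by 0.93 ± 0.09.

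Of 17 growth cone membrane and actin genes, 6 rose and 3 fell (median 0.01), beside the 31.4% higher and 33.1% lower of all genes. Gpm6a had a log2 change of 2.77 ± 0.10, Basp1, a partner in function of Gap43, one of 1.51 ± 0.12, and Arpc5 went from 133 ± 7.30 to 271.5 ± 10.5 cpm. Basp1 was also longer-lived relative to other transcripts at E16.5 (0.79 SD, adjusted p = 0.00849). In the list of 10 intermediate filaments, spectrins and ankyrins, 8 rose and 2 fell (median 1.32). Vim, the intermediate filament of radial glia, fell by 3.23 on the log2 scale (SE 0.09), from 6985 ± 245 to 708 ± 37.2 cpm, Ank3 had a log2 change of 2.43 ± 0.14, and Nefh one of 2.85 ± 0.55 with 0.867 ± 0.055 cpm in E16.5 cells. Of 11 RNA-binding proteins that recognise AU-rich, U-rich or Pumilio elements, 4 rose and 4 fell (median 0.13), near the shares over all genes. Zfp36l1 fell by 2.62 (SE 0.11), while Elavl3 and Elavl2 had log2 changes of 1.73 ± 0.10 and 1.56 ± 0.07.

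Markers of cell types differed between stages too. All 8 neuron markers rose from E11.5 to E16.5, and their summed level went from 668 to 720.2 cpm in the E11.5 pools to 2666 to 2812 at E16.5. Neurod6, a transcription factor of cortical neurons, had a log2 change of 2.96 ± 0.08, and Snap25 one of 2.83 ± 0.10. All 8 progenitor markers fell, from sums of 1250 to 1396 cpm to sums of 436 to 486 cpm. On the log2 scale Hes5 fell by 2.88, Sox2 fell by 1.68 and Hes1 fell by 1.53. Cortex markers were present throughout, at 744 to 849.9 in sum at E11.5 and 326 to 361 at E16.5, all 3 tested being lower at E16.5, Emx2 by 1.80, Emx1 by 1.60 and Lhx2 by 1.00 on the log2 scale.

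Markers of blood, mesenchyme and interneurons also changed. Of 4 erythroid markers 4 fell, from 1426 to 3153 cpm in sum at E11.5 to 31.8 to 72.9 at E16.5, led by Hbb-y, Slc4a1 and Hba-a1, with log2 changes of -13.07, -8.60 and -3.01. Of 4 mesenchymal markers 3 fell and 1 rose, with sums of 371 to 573 and 9.83 to 20.97 and with Col3a1 at -6.03, Col1a1 at -5.23 and Lum at -4.55. The 4 interneuron markers rose, from 33.5 to 40.7 in sum to 179 to 188, Gad1 by 6.76, Gad2 by 4.99 and Dlx1 by 2.54. Endothelial and microglia markers summed to at most 3.64 and 11.52 cpm. The part of cell composition in the changes of the 10 genes was not tested.

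The neuron and progenitor markers ranked lower in half-life than the 10 genes, and the other cytoskeletal lists lay between them at each stage. In E14.5 cells, the median percentile was 95.7 for the 10 genes and 83.6 for intermediate filaments, spectrins and ankyrins. It was 81.6 for growth cone membrane and actin genes and 73.1 for other tubulins. Tubulin folding and modification had 72.6, and other microtubule-associated proteins 67.3. A rank above the middle was thus not particular to the 10 genes. At E16.5, the 7 kept neuron markers had a median percentile of 16.7, where the 10 cytoskeletal genes had 96.9, although both lists rose in level. Their median percentile was 53.2 and 26.4 at the earlier stages, and 2 of them were called shorter-lived at E16.5 than at E11.5. Neurod6 had 3.87 ± 0.81, 3.36 ± 0.19 and 1.87 ± 0.09 h, while Snap25, a synaptic vesicle fusion protein, had 9.07 ± 2.22, 11.18 ± 0.74 and 7.25 ± 0.32 h. The 8 progenitor markers had median percentiles of 7.31, 4.05 and 23.2. These ranks are a description, since the lists were chosen by hand.

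Over all 45 libraries, the 10 genes followed a common course with the exception of Map1b. Each gene's log2 level had a Pearson correlation of 0.88 to 0.99 with the mean of the other 9, and Map1b had 0.69. Among 8006 other genes with at least 20 cpm on average, those most like the mean of the 10 were D430019H16Rik, Cd200, Agtpbp1 and Kifap3 (r = 0.989 each over 45 libraries) and Gm11223 (r = 0.988), the Stmn1 copy. Agtpbp1, a carboxypeptidase that removes glutamates from tubulin, went from 27.3 ± 2.12 to 54.4 ± 2.40 and 78.8 ± 1.53 cpm, and Kifap3, an accessory subunit of kinesin-2, from 85.4 ± 1.81 to 161 ± 6.71 and 228 ± 2.48. Libraries of a pool share their cells, so these correlations describe the course over stages.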

How the data were processed

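SLAM-seq was measured in 45 libraries. Per the labels and the study's methods, the authors used SlamDunk v0.4.3 with the genome mm10 and the exons of mouse GENCODE release 24. How reads that map to several places were counted is not given in the sources used here. They deposited covered-T counts (raw), the conversion rate as a fraction, printed here in percent, and expression in cpm (reads per 1e6 reads). 100% of the cpm values came out as whole reads, within 0.01 reads, and the recovered reads served as an alternative. A half-life, its score of fit (R2) and other columns were also deposited by the authors. Half-lives were refitted by least squares to exp(-kx) on rates divided by the 0 h rate, and 99.991% of 117534 fits lay within 1% of the deposited value.

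Levels were tested with edgeR 4.0.16 (quasi-likelihood, TMM, over 10 counts in all libraries compared), half-lives z-scored within a pool with limma 3.58.1 on 9505 transcripts. P-values were adjusted by Benjamini-Hochberg over all genes tested. Scripts ran in R 4.3.3 and Python 3.11.15 and were tested on simulated data. minimap2 2.31 aligned the pieces of exons. Alternatives were DESeq2 1.42.0, recovered reads, library totals, no filter, 12 h libraries, other half-life fits and filters, the replicate block, and leaving out each replicate.

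The 10 genes and all lists were chosen with earlier results of these data known. Named were the 10 genes, up to 3 genes of each list with the largest called log2 change from E11.5 to E16.5, the 5 genes of most similar course, and near-identical copies. Gm42418 was named after its values were seen. One gene that this rule names is not reported here. Within a stage, a letter marks a pool divided over wells, so 0 h and 12 h are paired by source (correlations of deviations 0.0887 to 0.339). Letters do not pair pools across stages (-0.0902 to 0.0777). Positions come from GENCODE release 21 on GRCm38, which named 96.6% of the 53491 genes. Pseudogene copies were matched by name. No unlabelled control was analysed here. Covered Ts of 1 read are not independent, so count-based precision rests on the replicates.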

Additional observations from a re-analysis of the deposited data

Results flagged for a closer look

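The change of Mapt over 12 h of chase differed between stages. The edgeR fit had a term for stage and chase time together and no block for the pool, so the pairing of 0 h and 12 h wells was not used. In it, the log2 change of Mapt in E14.5 cells minus that in E11.5 cells was -0.6652 (SE 0.11, adjusted p = 0.00154). That in E16.5 cells minus that in E11.5 cells was -0.4609 (SE 0.11, adjusted p = 0.0166). Mapt was higher after 12 h in 3 of 3 pools at each stage, with mean log2 changes in cpm of 0.62, 0.16 and 0.33. For Gap43 the change in E14.5 cells minus that in E11.5 cells was -0.532 (SE 0.11, adjusted p = 0.00731). Gap43 was higher in 2 of 3 pools at E11.5 and lower in 3 of 3 at E14.5, with mean log2 changes in cpm of 0.092 and -0.195. This test was added after the data had been seen, and it called 194 genes with a larger and 722 with a smaller change in E14.5 cells than in E11.5 cells, of 17224 tested. For E16.5 cells against E11.5 cells it called 464 genes with a larger and 803 with a smaller change. Between E16.5 and E14.5 none of the 10 genes was called, beside 52 larger and 22 smaller of the 17224. Of the 10 genes, 5 had an unadjusted p under 0.05 (Tubb3, Tubb2b, Tuba1a, Stmn2 and Dpysl3, all larger at E16.5). Of the 17224, 1957 had such a p in either direction. Gm42418 rose in the E11.5 libraries at 12 h, and its part in these differences was not tested.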

How the results depend on the processing

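Calls on level changed least over the whole interval: the rise from E11.5 to E16.5 held for 10 of 10 genes in each of 15 alternatives. With the replicate block the counts in the 3 comparisons were 9, 8 and 10. From E14.5 to E16.5 the count fell from 9 to 6 without pool B of E14.5 or pool B of E16.5. It was 7 without pool A or C of E14.5 or pool C of E16.5. Gap43 lost its call from E11.5 to E14.5 in the 12 h libraries (log2 0.08). Later calls of Tuba1a, Map1b and Stmn1 were lost in 4, 7 and 4 of 15 alternatives from E14.5 to E16.5.

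For 12 h against 0 h, the pools are paired: with the replicate block, 7 genes were called higher at E11.5 and 1 lower at E14.5, and the block changed no other count by over 1.5 times. Library totals without TMM gave 2 at E11.5, with a shift of 0.09 (log2) in the median of all genes, and leaving out a pool gave 1 to 3. Uncalled values changed sign: Tuba1a at E11.5 (-0.0475) and Dpysl3 at E14.5 (-0.0106) with library totals, Dpysl3 with recovered reads (-0.0201), and, over left-out pools, Map1b at E11.5 (-0.117 to 0.0357), Tuba1a (-0.114 to 0.0429), Stmn1 (-0.184 to 0.0445), Stmn2 (-0.0713 to 0.0303) and Dpysl3 (-0.00373 to 0.0140) at E14.5.

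Relative half-lives were less stable. Letters do not pair pools across stages, and the replicate block, which spends degrees of freedom on them, gave 0 genes across stages by limma, 0 longer in each single step and 2 from E11.5 to E16.5. Over left-out pools the counts ran from 1 to 5 across stages, from 0 to 2 and from 0 to 1 longer in the earlier and later step, and from 2 to 4 longer and 0 to 1 shorter (Stmn2, without pool C of E11.5) from E11.5 to E16.5. Dcx was called longer from E11.5 to E16.5 in each of the 17 alternatives that kept it. The labelled-RNA fit kept 8 genes and gave 2 across stages, 0 and 2 longer in the steps and 2 from E11.5 to E16.5. Without the 0 h point the steps gave 0 and 2 longer, with 1 shorter from E11.5 to E16.5. The quasi-Poisson fit gave 2 in the later step. R2 over 0.8 kept 8 genes and gave 2 longer in the earlier step and 1 shorter from E11.5 to E16.5. Log2 half-lives gave 0 in each step. Hours without scaling gave 0 longer in both steps, 4 shorter in the later step (Dcx -0.62 h) and 1 longer from E11.5 to E16.5. From E11.5 to E16.5 these values changed sign: in hours Tubb3 (-1.02), Stmn1 (-0.90), Dpysl3 (-0.92) and Gap43 (-0.14), without the 0 h point Tubb3 (-0.41), Map1b (-0.45), Dpysl3 (-0.10) and Mapt (0.34), in the quasi-Poisson fit Tubb3 (-0.0805) and Mapt (0.53), with the background subtracted Mapt (0.25), on the log2 scale Mapt (0.0316), for labelled RNA Stmn1 (-0.0678), and over left-out pools Mapt (-0.65 to 0.48) and Stmn1 (-0.0763 to 0.72). The cause was not tested.

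In hours, the median of the 10 genes at the successive stages was 6.419, 7.600 and 6.880 h with a background of 0.121% subtracted, 5.781, 6.393 and 4.670 h without the 0 h point, and 6.509, 7.707 and 5.999 h in the quasi-Poisson fit. For labelled RNA it was 8.354 h in E14.5 cells and 7.978 h in E16.5 cells. Subtracting the background moved the median conversion rate at 0 h to 0.832% at E14.5 and 1.84% at E16.5. Low read counts limit Stmn1 most, and Mapt at E11.5.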
